A study of Mus musculus with 8 samples.

Results

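The report describes 10 genes of growth arrest and the p53 response in mouse pancreatic ductal adenocarcinoma cells: Cdkn1a, Gadd45a, Gadd45b, Bbc3, Ccng1, Mdm2, Sesn1, Zmat3, Phlda3 and Bax. They were picked by name from a table of 49315 gene identifiers, all 10 had an identifier, and all 10 were among the 12900 genes with enough signal to test. RNA was sequenced from 4 cell lines (6694c2 and 2838c3, 6499c4 and 6419c5), in each from 1 culture with the genotype WT and 1 with C1galt1c1-KO (KO below), so 8 libraries were compared, 4 per genotype. All 8 were untreated cultures in the same serum-containing medium. C1galt1c1, also called Cosmc, encodes the chaperone of the core 1 O-glycan synthase, and its loss leaves cells with the shortened Tn O-glycan. The labels do not say whether a KO line is 1 clone. Lines of these names are known from earlier work as clones from tumours of mice with a mutant Trp53 allele. The labels do not state this, and whether p53 protein works in these cells was not measured.

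The protein p53 is a transcription factor that is held low by the ubiquitin ligase Mdm2 and accumulates after DNA damage and other stress. It then switches on genes that stop the cell cycle (Cdkn1a), that favour cell death (Bbc3, Bax), that lower growth signalling (Sesn1, Phlda3) or that act on RNA (Zmat3). It also switches on Mdm2 itself, which closes a feedback loop, and Ccng1, whose product recruits a phosphatase to Mdm2. Gadd45a and Gadd45b, small proteins that bind cell cycle and stress kinases, also answer to signals that do not pass through p53: Gadd45a to ATF4 in the integrated stress response, Gadd45b to NF-kB and TGF-beta. Cdkn1a and Bbc3 too have inducers besides p53.

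Gadd45a and Bbc3 were higher in the KO library of all 4 lines, as 1.88% of all genes tested were, Gadd45a by 1.69 to 4.09 times and Bbc3 by 1.04 to 2.00 times in TPM (the share of a library that a transcript takes, scaled by gene length). Cdkn1a was 2.77 to 4.81 times higher in 3 lines and at 0.917 times the WT level in 6694c2. Bax was also higher in 3 lines, by 1.14 to 1.17 times, and at 0.738 times the WT level in 2838c3. The other 6 genes, among them the feedback gene Mdm2 and the widely used p53 reporters Ccng1, Zmat3 and Phlda3, were higher in KO in some lines and lower in others. The 43 other p53 target genes that could be tested had a median difference of 0.03 on the log2 scale relative to all genes. Their list was written with earlier results of these data known. The 10 genes were proposed with these differences in view, so their values are a description and no test of them is given.

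Differences below are KO minus WT on the log2(TPM + 1) scale (changes of low genes come out too small on it), and they are given relative to the median change of all 12900 genes. That median was -0.15 over the 4 lines, and -0.23 in 6694c2, -0.08 in 2838c3, -0.11 in 6499c4 and -0.16 in 6419c5. Where 4 values are given without the names of the lines, they are in this order. The SE and p printed with a difference are those of the fit before this median was taken off. Identifiers without a gene name took up 12.5% of the TPM in the KO library of 6694c2 and 9.69% in that of 6419c5, the lines with the lowest medians, against 0.713% to 1.33% in the other 6. C1galt1c1 itself ran from 37.0 to 54.2 in the WT and from 10.9 to 19.0 in the KO libraries, so the groups did not overlap (limma adjusted p = 0.278). The 12 markers of ductal epithelium summed to between 15183 and 38412 TPM in the 8 libraries, led by Spp1. Those of fibroblasts (9 genes), blood cells (8), endothelium (6) and acinar or islet cells (9) summed to at most 11.9, 28.9, 19.1 and 48.7 TPM, led by Thy1, Cd68, Egfl7 and Cela1, and 6 of the acinar and islet markers were listed at 0 in all libraries. With a single WT and a single KO library, differences inside 1 line cannot be set against replicates. In a bulk culture, more cells with a transcript and more transcript per cell cannot be told apart.

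The sequences that p53 is known to bind were looked for first. The p53 response element, a pair of adjoining 10-base copies of its consensus, was searched from 3000 bases before to 2000 bases after the start of the canonical transcript in GRCm39, reading the strand of the gene. At most 2 mismatches over the 20 bases were allowed, none of them at the fixed C and G of either copy. The element reads the same on both strands, so 1 search covers both. A match was found for 4 of the 10 genes. Capitals mark the 20 matched bases, with 5 bases on each side.
Cdkn1a, upstream of the gene: ttcagGAACATGTCTTGACATGTTCagccc
Ccng1, upstream of the gene: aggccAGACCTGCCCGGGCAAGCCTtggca
Ccng1, in an intron: ccggaACGCAAGCCCGGGCTAGTCTgcgcc
Zmat3, in an intron: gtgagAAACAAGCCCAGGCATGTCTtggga
Bax, in an intron: cccccGGGCAGGCCCGGGCTTGTCGctggc

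The Cdkn1a match begins 2836 bases before the canonical start, at chr17:29309902-29309921 on the plus strand, with 1 mismatch. The Ccng1 matches lie at chr11:40646289-40646308, beginning 170 bases before the start, and at chr11:40645763-40645782, both on the minus strand with 1 mismatch. The Zmat3 match, at chr3:32418480-32418499 on the minus strand, had 0 mismatches, and the Bax match, at chr7:45115998-45116017 on the minus strand, had 2. Over all 11378 protein-coding genes tested, 5.49% held a match with at most 2 mismatches, 0.923% with at most 1 and 0.141% with none. Of the 43 other p53 targets 20.9% held one with at most 2. No match in this window for Gadd45a, Gadd45b, Bbc3, Mdm2, Sesn1 and Phlda3 says only that these letters are not in it. The genes with a match did not share a pattern across the libraries: Cdkn1a spanned 20.2 times from its lowest to its highest library, Zmat3 1.84 times.

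**Figure D1:**
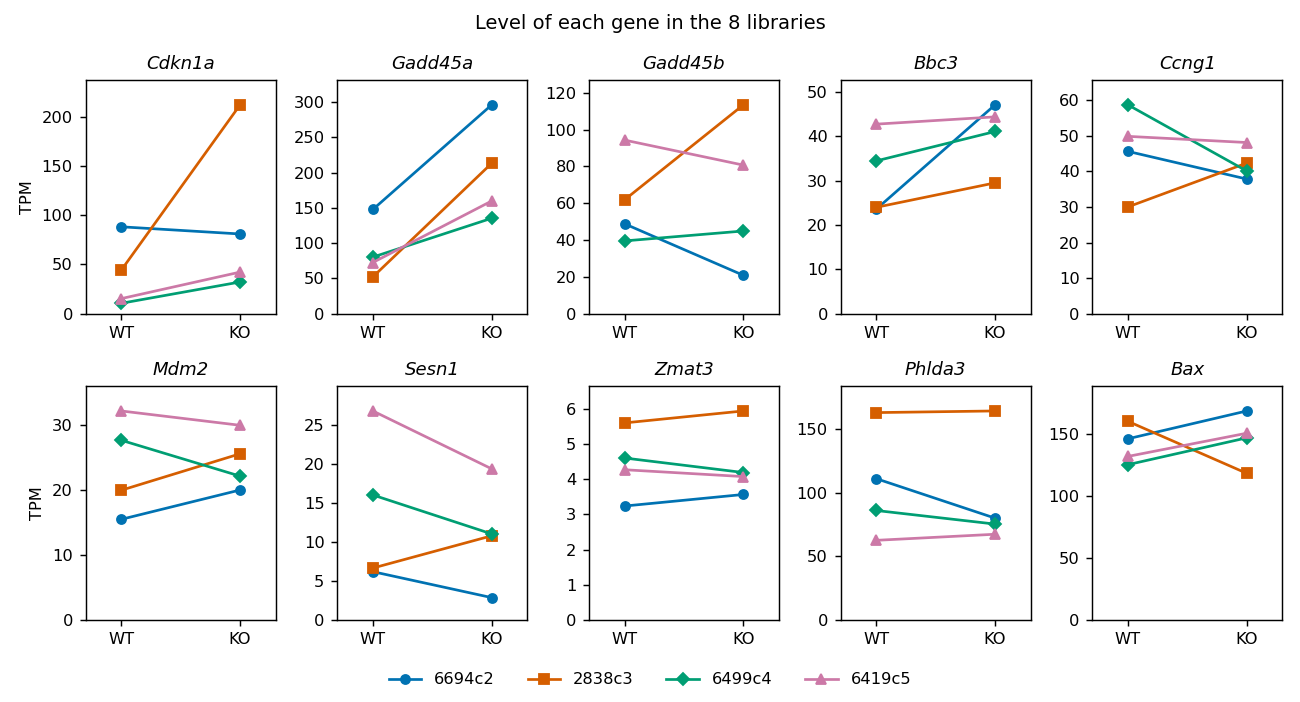
TPM of each of the 10 genes (y axis, from 0, own scale for each gene) in the WT and KO library of each line (x axis); points are single libraries and a segment joins the 2 libraries of a line. The KO point is above the WT point in all 4 lines for Gadd45a and Bbc3 and in 3 lines for Cdkn1a; the other panels hold segments of both directions.

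Trp53 and its feedback regulator Mdm2 were read first. Trp53 mRNA, which codes for p53, stood at 94.5 and 122 TPM in the WT and KO library of 6694c2, at 150 and 85.3 TPM in 2838c3, at 126 and 121 TPM in 6499c4 and at 136 and 120 TPM in 6419c5. The transcript was therefore present in every library, at 127 ± 23.5 TPM in WT and 112 ± 17.8 TPM in KO (SD, n = 4 lines). Its level says nothing of the protein, which is mainly controlled by its stability. The limma estimate for Trp53, which is not one of the 10 genes, was -0.02 with an SE of 0.20 and an adjusted p = 0.772, a difference smaller than the spread between lines.

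Mdm2 (ENSMUSG00000020184, chromosome 10, 117524780 to 117546730) codes for the ligase that marks p53 for degradation. It went in TPM from 15.5 to 20.0 in 6694c2 and from 20.0 to 25.6 in 2838c3, but from 27.7 to 22.1 in 6499c4 and from 32.2 to 30.0 in 6419c5. The lines that started lowest were higher in KO, and the lines that started highest were lower. The WT level is itself part of the difference, so nothing is read from such an order, here or for the genes below. WT and KO overlapped, at 23.8 ± 7.51 and 24.4 ± 4.35 TPM (SD, n = 4 lines), and the difference over the 4 lines was 0.22 with an SE of 0.17 (0.10 without 6694c2 and 0.35 without 6499c4). In both genotypes the level was lowest in 6694c2 and highest in 6419c5.

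Cdkn1a (ENSMUSG00000023067, chromosome 17, 29309936 to 29319701) codes for p21, the inhibitor of cyclin-dependent kinases that carries out much of the arrest by p53. Its TPM went from 44.0 to 212 in 2838c3, from 10.5 to 32.1 in 6499c4 and from 15.2 to 42.2 in 6419c5, and from 88.1 to 80.8 in 6694c2. It thus was higher in KO in the 3 lines with the lower WT levels, while in 6694c2, the WT library with the most Cdkn1a, the KO value was lower. The WT libraries alone spanned 8.39 times, and the 2838c3 KO library stood highest of the 8. Relative to all genes the differences were 0.11, 2.32, 1.63 and 1.57. The first of these is above 0 only through the shift of that line, since it was -0.12 before the shift was taken off. The difference over the 4 lines was 1.41 with an SE of 0.35, 1.11 without 2838c3 and 1.85 without 6694c2. WT and KO overlapped, at 39.5 ± 35.7 against 91.8 ± 82.8 TPM (SD, n = 4 lines).

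Gadd45a (ENSMUSG00000036390, chromosome 6, 67012070 to 67014441) codes for a growth arrest and DNA damage inducible protein that binds PCNA, p21 and the mitotic kinase Cdk1. Its level went in TPM from 148 to 296 in 6694c2, from 52.1 to 213 in 2838c3, from 80.2 to 135 in 6499c4 and from 72.5 to 160 in 6419c5. Every KO library was above its own parent, and 3 of the 4 KO libraries were above all WT libraries; the 6499c4 KO library, at 135 TPM, lay below the 6694c2 WT library. The differences were 1.23, 2.09, 0.85 and 1.28, and 1.37 with an SE of 0.22 over the 4 lines. KO libraries stood at 201 ± 71.2 TPM and WT libraries at 88.2 ± 41.5 TPM (SD, n = 4 lines). The line with the largest difference, 2838c3, was the one with the lowest WT level. The SD of its 4 differences was 0.52, against 0.93 for Cdkn1a.

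Gadd45b (ENSMUSG00000015312, chromosome 10, 80764523 to 80768038), the relative of Gadd45a, did not follow it. Its TPM went from 61.8 to 113 in 2838c3 and from 39.5 to 44.9 in 6499c4, but from 48.8 to 20.8 in 6694c2 and from 94.3 to 80.7 in 6419c5. In 6694c2 Gadd45a stood at 2.00 times and Gadd45b at 42.6% of the WT level, with differences of 1.23 and -0.96. The difference of Gadd45b over the 4 lines was 0.06 with an SE of 0.31, and with 1 line left out it ran from -0.24 (without 2838c3) to 0.40 (without 6694c2). It was -0.03 without 6499c4 and 0.63 without both 6694c2 and 6419c5. The third relative, Gadd45g, was at 72.1 and 41.5 TPM in the WT and KO library of 6694c2, at 58.3 and 42.2 TPM in 2838c3, at 19.0 and 17.3 TPM in 6499c4 and at 18.6 and 43.4 TPM in 6419c5, so it was higher in KO in 1 line only. Gadd45g was named as the remaining member of the family, after its values were seen.

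Ccng1 (ENSMUSG00000020326, chromosome 11, 40639377 to 40646148) codes for cyclin G1, a p53 target that recruits a phosphatase to Mdm2. It went in TPM from 45.6 to 37.8 in 6694c2, from 58.7 to 40.1 in 6499c4 and from 49.8 to 48.1 in 6419c5, and from 30.0 to 42.3 in 2838c3. The 4 KO libraries lay within 37.8 to 48.1 TPM, inside the WT range of 30.0 to 58.7 TPM. The difference over the 4 lines was 0.06 with an SE of 0.19, and with 1 line left out it ran from -0.11 (without 2838c3) to 0.21 (without 6499c4).

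Bbc3 (ENSMUSG00000002083, chromosome 7, 16042318 to 16052130) codes for PUMA, a BH3-only protein that sets off cell death by binding the protective BCL2 proteins. It went in TPM from 23.6 to 47.2 in 6694c2, from 24.0 to 29.5 in 2838c3, from 34.5 to 41.1 in 6499c4 and from 42.8 to 44.4 in 6419c5. The KO library was above its parent in each line, by 2.00 times in 6694c2 and by at most 1.23 times elsewhere, and the 2 groups overlapped. The differences were 1.20, 0.37, 0.35 and 0.21. Over the 4 lines the difference was 0.54 with an SE of 0.18, and without 6694c2 it was 0.32.

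Bax (ENSMUSG00000003873, chromosome 7, 45111015 to 45116325) codes for the pore-forming protein that permeabilises mitochondria, downstream of PUMA. It went in TPM from 146 to 169 in 6694c2, from 126 to 147 in 6499c4 and from 132 to 151 in 6419c5, and from 161 to 119 in 2838c3. The KO level was 1.15, 1.17 and 1.14 times that of WT in the first 3 of these lines and 0.738 times in 2838c3. The spread over the 8 libraries was the smallest of the 10 genes, with a highest to lowest ratio of 1.43. The difference over the 4 lines was 0.19 with an SE of 0.16. It was 0.38 without 2838c3 and 0.12 without 6694c2, and 0.0022 without both 6694c2 and 6419c5.

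Phlda3 (ENSMUSG00000041801, chromosome 1, 135693809 to 135697686) codes for a pleckstrin homology protein that keeps the kinase AKT from the membrane. Its TPM went from 111 to 80.0 in 6694c2, from 163 to 164 in 2838c3, from 86.0 to 75.3 in 6499c4 and from 62.5 to 67.3 in 6419c5. Both 2838c3 libraries stood above all 6 others. The difference over the 4 lines was 0.01 with an SE of 0.15, and it ran from -0.08 (without 6419c5) to 0.10 (without 6694c2).

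Sesn1 and Zmat3 had the lowest mean levels of the 10 over the 8 libraries. Sesn1 (ENSMUSG00000038332, chromosome 10, 41685931 to 41784423), a sestrin that restrains the growth kinase mTORC1, went in TPM from 6.17 to 2.84 in 6694c2, from 16.0 to 11.01 in 6499c4 and from 26.8 to 19.4 in 6419c5, and from 6.64 to 10.8 in 2838c3. It was the 1 gene of the 10 whose difference over the 4 lines lay below the median of all genes, at -0.16 with an SE of 0.26, and it ran from -0.44 (without 2838c3) to 0.02 (without 6694c2). Its relative Sesn2, a target of ATF4 as well as of p53, went the other way in 6694c2 and 6419c5, from 15.3 to 34.6 TPM and from 12.2 to 34.0 TPM. Zmat3 (ENSMUSG00000027663, chromosome 3, 32388941 to 32420163), a zinc finger protein that binds RNA and shapes splicing, went in TPM from 3.24 to 3.57 in 6694c2, from 5.60 to 5.94 in 2838c3, from 4.61 to 4.19 in 6499c4 and from 4.27 to 4.08 in 6419c5. Zmat3 in KO was at 101% ± 8.94 of its WT level (SD, n = 4 lines), so KO and WT of a line differed less than the lines did. The difference over the 4 lines was 0.15 with an SE of 0.16, and 0.09 without 6694c2.

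**Figure D2:**
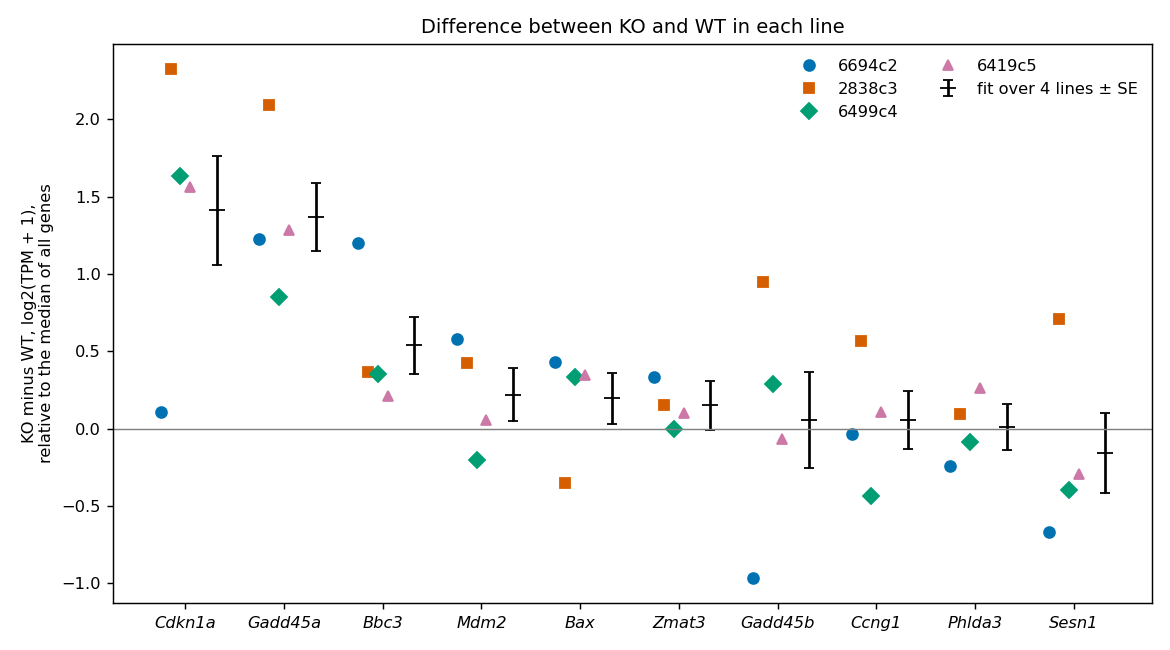
KO minus WT difference of each of the 10 genes on the log2(TPM + 1) scale relative to the median of all genes (y axis), ordered from high to low; coloured points are the 4 lines and the black bar is the fit over the 4 lines with its SE. Cdkn1a and Gadd45a stand at 1.41 and 1.37, Bbc3 at 0.54, and the other 7 lie between -0.16 and 0.22.

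Counted over the 10 genes, 3 lay above the line's median change in all 4 lines (Cdkn1a, Gadd45a and Bbc3), where 6.43% of all genes did, and 0 lay below it in all 4, where 6.79% did. Before the shift was taken off, Gadd45a and Bbc3 were higher in all 4 lines, where 1.88% of all genes were. With 4 libraries a group, 0 of the 10 genes had all KO libraries above all WT libraries, where 0.147% of all genes did, and 0 had all KO below all WT, where 1.34% did. Changes of at least 1.5-fold within a line were counted without a test. Upward there were 2 in 6694c2 (Gadd45a, Bbc3; 8.88% of all genes), 4 in 2838c3 (Cdkn1a, Gadd45a, Gadd45b, Sesn1; 15.1%), 2 in 6499c4 (Cdkn1a, Gadd45a; 4.46%) and 2 in 6419c5 (Cdkn1a, Gadd45a; 6.40%). Downward there were 2 in 6694c2 (Gadd45b, Sesn1; 10.4%) and 0 in 2838c3, 6499c4 and 6419c5 (16.0%, 5.09% and 6.47%). Since these differences were in view when the genes were proposed, nothing is read from the counts. The median difference of the 10 genes was 0.17 beside 0 for all genes by construction, and 0.22, 0.49, 0.14 and 0.16 by line.

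By mean level over the 8 libraries the order was Gadd45a (145 ± 81.0 TPM, SD), Bax (144 ± 17.3), Phlda3 (101 ± 41.2), Cdkn1a (65.6 ± 65.3), Gadd45b (63.1 ± 30.9), Ccng1 (44.1 ± 8.64), Bbc3 (35.9 ± 9.34), Mdm2 (24.1 ± 5.69), Sesn1 (12.4 ± 7.89) and Zmat3 (4.44 ± 0.931). The ranges of each neighbouring pair in this order overlapped. Spread did not follow level: Cdkn1a spanned 20.2 times, Sesn1 9.42 times, Gadd45a 5.68 times and Gadd45b 5.45 times from the lowest to the highest library, and the other 6 genes at most 2.63 times. Over the 8 libraries, which are 4 lines read in 2 genotypes and share that structure, Pearson's r on the log2 scale was 0.84 for Sesn1 with Mdm2, 0.67 for Gadd45a with Cdkn1a and -0.83 for Phlda3 with Bbc3.

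The genes whose pattern over the 8 libraries was most like that of Cdkn1a were Dlg4 (r = 0.97), Nans (0.97), Psmd8 (0.96), Pxdc1 (0.95) and Dusp7 (0.94). Each of these had its highest level in the 2838c3 KO library, as Cdkn1a did, and Pxdc1 went from 53.7 to 86.3 TPM there and from 75.2 to 73.1 TPM in 6694c2. For Gadd45a they were the let-7 hairpin gene Mirlet7b (0.94), Pvr (0.92), Rabac1 (0.91), Angptl6 (0.91) and Marchf9 (0.89). Angptl6 went in TPM from 13.5 to 48.5 in 6694c2 and from 3.93 to 15.7 in 2838c3. Mirlet7b was low, at most 4.16 TPM and listed at 0 in the WT libraries of 2838c3 and 6419c5. These are the closest of the 12900 genes over 8 libraries from 4 lines, with predicted genes (Gm and Rik names) and identifiers without a name left out. They are given as a description.

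Other genes widely known as p53 targets were then read as a list of 48, of which 43 could be tested. The list was chosen for what its genes are known to do, but with earlier results of these data known. None passed (0 of 43 higher and 0 lower at a Benjamini-Hochberg adjusted limma p under 0.05, smallest adjusted p = 0.556), as 0.00% of all 12900 genes did in either direction. At an unadjusted limma p under 0.05 there were 2 higher and 2 lower, against 111 higher and 1026 lower among all genes (8.81% together). The median difference was 0.03, with 24 genes above and 19 below the median of all genes, and line medians of -0.10, 0.06, -0.04 and 0.19. The sign of this median turned without 2838c3 (-0.04), without 6419c5 (-0.03) and without the filter on low values (-0.04), and it was 0.08 without 6499c4. The 4 genes of smallest p were Sesn2 (0.92, SE 0.25), the stress cytokine Gdf15 (1.36, SE 0.49), the epoxide hydrolase Ephx1 (-0.45, SE 0.21) and the receptor Notch1 (-0.32, SE 0.19). Gdf15 went in TPM from 27.4 to 80.8 in 6694c2 and from 9.90 to 86.6 in 6419c5, from 14.5 to 23.9 in 6499c4, and from 20.9 to 16.1 in 2838c3. The highest gene of the list was the plexin Plxnb2, between 210 and 498 TPM, at -0.26 with an SE of 0.19. Eda2r and the long non-coding RNA Trp53cor1, both named after their values were seen, were at most at 0.0902 and 1.17 TPM.

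**Figure D3:**
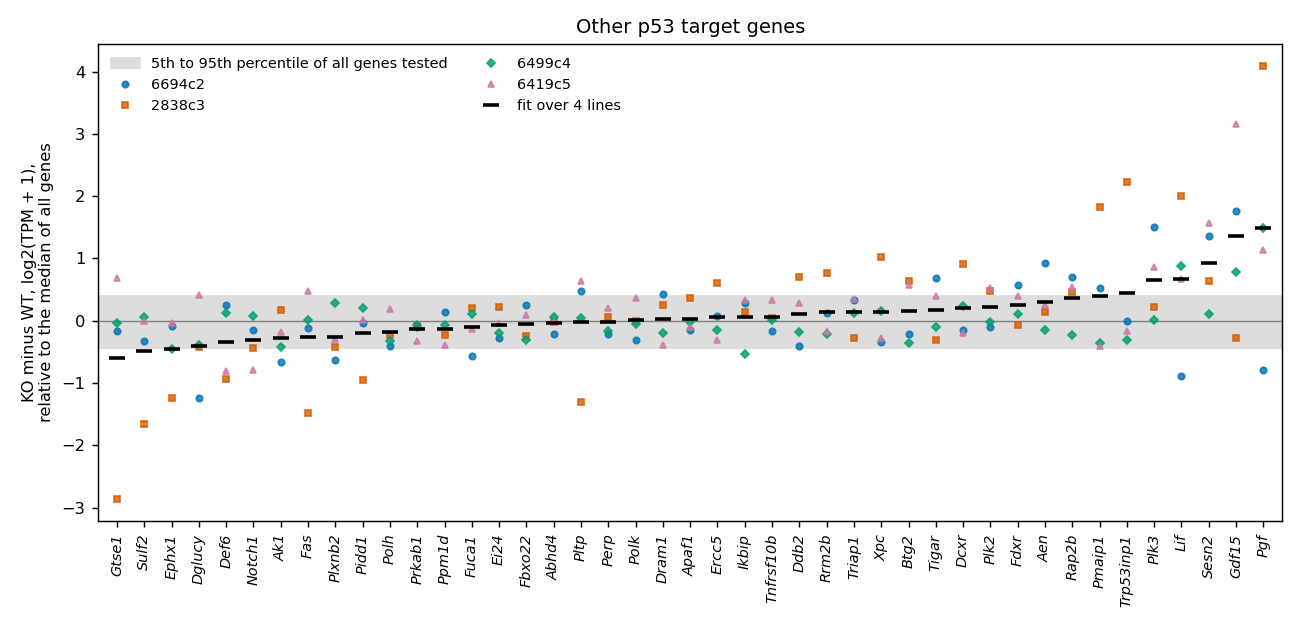
KO minus WT difference of the 43 other p53 targets tested, on the log2(TPM + 1) scale relative to the median of all genes (y axis), ordered by the fit over the 4 lines (black bars); coloured points are the lines and the grey band spans the 5th to 95th percentile of the fit for all genes, -0.44 to 0.40. The fit of 33 genes lies in the band. Above it are 7, namely Pgf (1.49), Gdf15 (1.36), Sesn2 (0.92), Lif (0.67), Plk3 (0.66), Trp53inp1 (0.44) and Pmaip1 (0.40). Below it are 3, namely Gtse1 (-0.59), Sulf2 (-0.48) and Ephx1 (-0.45). Several of these fits lean on 2838c3. By line, Pgf stood at -0.80, 4.09, 1.49 and 1.14, and Trp53inp1 at 0.0011, 2.22, -0.31 and -0.16. Pmaip1 stood at 0.52, 1.82, -0.36 and -0.41, and Gtse1, below the band, at -0.17, -2.87, -0.04 and 0.68.

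Genes that sit upstream of p53 or modify it (20 listed, 18 tested) had a median difference of -0.09 (-0.13 without 6694c2 and -0.05 without 6419c5). In either direction 0 passed, and 0 were higher and 1 lower at an unadjusted limma p under 0.05. For these and the lists below, the unadjusted counts stand against 111 higher and 1026 lower among all 12900 genes. In this list Kat5, Chek2, Chek1 and Ppm1d, an acetyltransferase, the checkpoint kinases and a phosphatase that switches p53 off, stood at -0.19, -0.17, -0.55 and -0.13 (SE 0.14, 0.15, 0.34 and 0.15; limma, smallest adjusted p = 0.561). Cdkn2a, whose Arf product restrains Mdm2, was listed at 5.76 and 5.21 TPM in the libraries of 6694c2 and between 520 and 1507 TPM in the other 6. CDK inhibitors and relatives of the 10 genes (20 listed, 19 tested) had a median of 0.10, and 0 passed (limma, smallest adjusted p = 0.556; 1 higher and 2 lower unadjusted). Their median ran from -0.01 (without 2838c3) to 0.14 (without 6694c2). Besides Sesn2, Cdkn2c (p18), Rbl1 (p107) and Cables1 stood at -0.54, -0.66 and -0.29 (SE 0.21, 0.28 and 0.21). BCL2 family genes other than Bbc3 and Bax (19 listed, 15 tested) had a median of -0.05 (0.03 without 6694c2 and -0.15 without 6499c4). By line their median was -0.35, -0.06, 0.17 and -0.06. Of them 0 passed (limma, smallest adjusted p = 0.579), with 0 higher and 0 lower unadjusted. The protective Mcl1, Bcl2l1 and Bcl2 stood at -0.12, -0.13 and -0.26 (SE 0.14, 0.15 and 0.26), Bcl2l12 at -0.10 (SE 0.17), and Bok, the highest on average, at -0.09 (SE 0.22). Targets of NF-kB and TGF-beta, both inducers of Gadd45b (18 genes), had a median of 0.17 (0.10 without 2838c3 and -0.04 without both 6694c2 and 6419c5), with 0 passed (limma, smallest adjusted p = 0.556; 0 higher and 1 lower unadjusted). There Id1 stood at -0.78 (SE 0.30), Icam1 at -0.26 (SE 0.21), Tnfaip3 at -0.18 (SE 0.14) and Tgif1 at 0.57 (SE 0.22).

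Stress genes driven by ATF4 and CHOP were read beside Gadd45a and Bbc3, which the same factors can induce. All 25 lay above the median of all genes in the fit over the 4 lines, with a median of 0.60. By line, 23, 10, 17 and 24 of the 25 did. The list was written with earlier results of these data known, so nothing is read from the shared direction. None passed (limma, smallest adjusted p = 0.542). At an unadjusted limma p under 0.05 there were 7 higher and 0 lower, against 111 higher and 1026 lower among all 12900 genes. Line by line the median stood at 1.46 (6694c2), -0.11 (2838c3), 0.05 (6499c4) and 1.32 (6419c5), and for the fit it was 0.02 without both 6694c2 and 6419c5 and 1.00 without 2838c3. Gadd45a was at 2.09 in 2838c3 and at 0.85 in 6499c4, the lines where the median of this list stood near that of all genes. It was at 1.23 and 1.28 in 6694c2 and 6419c5. The list was split in 2838c3, where 10 of its 25 genes lay above the median of all genes. Its genes ran there from -1.19 (Psat1) to 1.64 (Ddit4), both named after their values were seen. Ddit3, which codes for CHOP, was above the median of all genes in 2838c3, with 14.7 TPM in WT and 43.2 TPM in KO. In 6694c2, 6499c4 and 6419c5 it went from 31.7 to 154, from 22.7 to 26.9 and from 25.8 to 98.5 TPM, a difference over the 4 lines of 1.61 with an SE of 0.32. Trib3, Nupr1 and Sesn2 stood at 1.63, 0.96 and 0.92 (SE 0.49, 0.19 and 0.25), and the serine synthesis gene Phgdh, the highest on average, at 0.54 (SE 0.23). The libraries of 6694c2 and 6419c5 with the high stress genes also carried 12.5% and 9.69% of TPM outside named genes. With identifiers without a name and structural RNA left out and TPM rescaled, Gadd45a was at 1.38 and Bbc3 at 0.55 over the 4 lines. As reported they were at 1.37 and 0.54. Beyond that rescaling, the part of the stress genes or of the unnamed share in the values of Gadd45a and Bbc3 was not tested.

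Genes of S phase and mitosis were read beside Cdkn1a, since p21 holds them down. All 32 lay below the median of all genes over the 4 lines, with a median of -0.63. By line, 6, 0, 8 and 27 of the 32 lay above it. This list too was written with earlier results of these data known, so nothing is read from the shared direction. None passed (limma, smallest adjusted p = 0.556). At an unadjusted limma p under 0.05 there were 0 higher and 8 lower, against 111 higher and 1026 lower among all 12900 genes. Such p come from the fit before the shift, whose median of -0.15 favours lower calls. The median was -2.75 in 2838c3, where Cdkn1a differed most, at 2.32. In 6499c4 and 6419c5 Cdkn1a was at 1.63 and 1.57 while this list was at -0.22 and 0.62, and in 6694c2 Cdkn1a was at 0.11 while the list was at -0.41. The median of the list was 0.01 without 2838c3 and -1.12 without 6419c5. The ribonucleotide reductase subunit Rrm1, cyclin E2 (Ccne2) and the replication helicase genes Mcm6 and Mcm4 stood at -0.57, -0.88, -0.46 and -0.70 over the 4 lines (SE 0.20, 0.32, 0.19 and 0.29). Pcna, the highest on average, went in TPM from 429 to 139 in 2838c3 and from 113 to 117 in 6419c5. The part of growth state in the values of Cdkn1a was not tested.

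**Figure D4:**
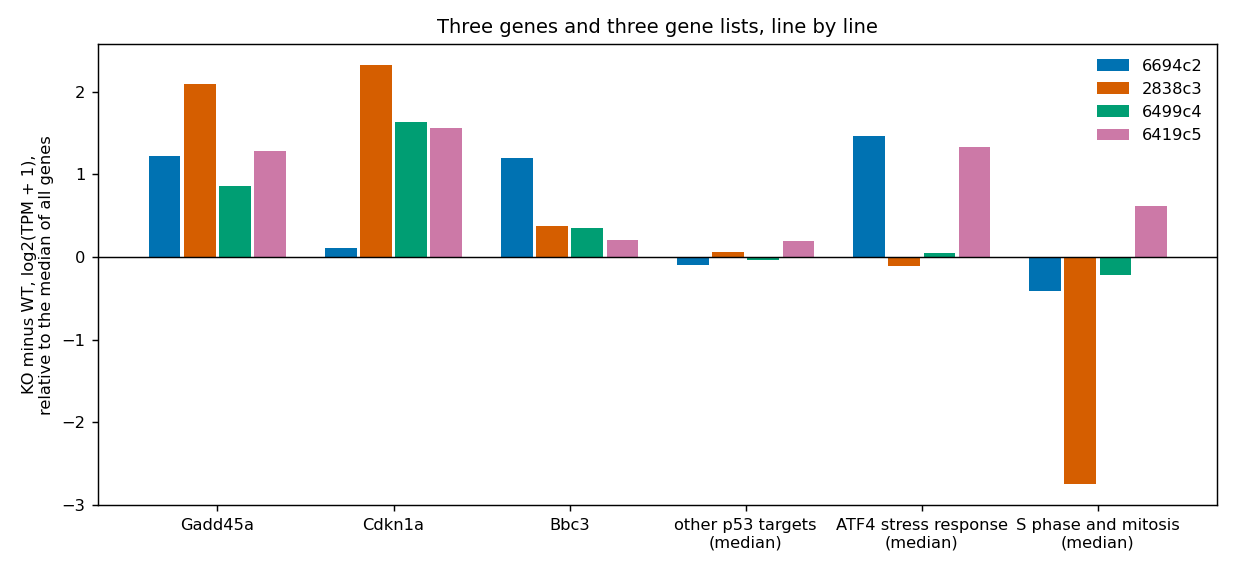
KO minus WT difference in each line (bars, y axis from 0 on the log2(TPM + 1) scale relative to the median of all genes) for Gadd45a, Cdkn1a and Bbc3 and for the medians of 43 other p53 targets, 25 ATF4 stress genes and 32 S phase and mitosis genes. Gadd45a is above 0 in all 4 lines, the stress list is at 1.46 in 6694c2 and 1.32 in 6419c5, and the S phase and mitosis list is at -2.75 in 2838c3.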

How the data were processed

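Polyadenylated RNA of 8 cultures was sequenced in paired ends, per the labels' protocols. The authors deposited TPM, which sum to 1000000 in each library, so they are shares and the depth behind them is unknown. The submitters' processing notes name cutadapt 5.1, STAR 2.7.11b, featureCounts 2.1.1, DESeq2 2.11.40.8 and the mm39 build; the sources used here do not give how TPM were made or with which gene lengths. Symbols and coordinates are those of GENCODE vM39 (GRCm39, identical to mm39), which matched 45505 of 49315 identifiers.

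The 12900 genes that reached 1 TPM in 4 or more libraries entered limma 3.58.1 in R 4.3.3 on log2(TPM + 1), modelling genotype and line with a variance trend and Benjamini-Hochberg adjustment at 0.05. The line is a block because the WT and KO libraries of a line share it; their deviations from the group means correlated at 0.66, 0.42, 0.79 and 0.75. Nothing in the labels says that a culture was repeated. The p-values therefore rest on how far the KO minus WT difference varied from line to line. That variation also holds differences between single cultures and libraries. On simulated data for this comparison over 12900 genes, the fit recovered 48% of 100 genes changed by 1 on the log2 scale. It recovered 88% of 100 changed by 2, with 7 false calls. The simulated noise was independent between genes and libraries, and no shift of composition between genotypes was simulated. In the real data C1galt1c1 had a limma adjusted p = 0.278, and no gene had a smaller one. The simulated recovery therefore does not give the power in these data.

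The 10 genes, the lists and the tests were chosen with earlier results of these data known. Named besides the 10 are C1galt1c1, Trp53, the 4 genes of smallest p and the highest gene of each pathway list. The highest gene of each cell type list is also named. So are the 5 genes most like Cdkn1a and Gadd45a, with predicted genes and identifiers without a name left out. The other p53 targets outside the range of all genes were named after their values were seen. Sesn2, Cdkn2a, Ppm1d and Pmaip1 are in more than 1 list. Alternatives were a pseudocount of 0.1, no filter, a TPM minimum of 5, median-ratio scaling, quantile normalization, structural RNA left out, no variance trend, no line block, each line left out, and 6694c2 and 6419c5 left out together. The setting with structural RNA left out also left out the identifiers without a gene name. Python 3.11.15 was used for tables and figures.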

Additional observations from a re-analysis of the deposited data

Results flagged for a closer look

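Of 24 groups of 4 libraries (the 10 genes, Trp53 and C1galt1c1 in each genotype), 2 held a library that stood apart from the other 3 by Dixon's criterion, which chance alone meets in about 1 in 20 groups. Both were the KO library of 2838c3. Phlda3 was at 164 TPM there, against 80.0 TPM in the nearest KO library, and its WT parent had a like level, 163 TPM. Trp53 was at 85.3 TPM, the lowest of the KO libraries, against 120 TPM in the nearest.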

How the results depend on the processing

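Under all 13 alternatives 0 genes passed the adjusted limma threshold, among all genes and among the pathway lists. The median difference of the 10 genes, 0.17, ranged from 0.07 to 0.21. Without the replicate block, which pairs the libraries of a line, it was also 0.173, since the design is balanced, and genes at an unadjusted p under 0.05 numbered 210 in place of 1137. Median-ratio scaling gave 646 and quantile normalization 655. Gadd45a ranged from 1.13 to 1.54, Cdkn1a from 1.11 to 1.99 and Bbc3 from 0.32 to 0.64. The sign turned under 3 alternatives for Gadd45b and Phlda3 and under 2 for Ccng1 and Sesn1. For Gadd45b, Phlda3 and Ccng1 it turned without the filter. There the fitted difference stayed the same and the median of all genes taken off went from -0.15 to -0.05. The other turns came with lines left out. Zmat3 had no value with a TPM minimum of 5. With 1 library per genotype in each line and TPM of unknown depth, no precision can be given for a single library.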
